A study of Zea mays with 7 samples.

Results

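Small RNAs bound by AGO104 in mm ears, which are homozygous for mop1-1, were compared with those of B73 ears in bins of 1 kb along chromosome 2. The comparison uses 2 mm and 2 B73 libraries, 4 of the 7 libraries in the series. The 2 libraries of Mm ears, heterozygous Mop1-1/mop1-1, stand beside them as values. They also enter a model added later, which served to count kept calls and to name bins by covered bases. All were made from immature ears by RNA immunoprecipitation, with 2 biological replicates per genotype. The labels give the antibody as AGO104-AGO105, the study as AGO104, and a legend of the study speaks of mature ears.

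The mm and Mm plants came from a mop1-1 stock that carries the B' epiallele of b1 with its tandem repeats, and mm plants show the dark B-I like state. B73 is the inbred reference line, with a neutral b allele and intact mop1. The mutation and the background of the stock therefore change together between mm and B73, and in this comparison they cannot be told apart. The Mm libraries share the stock and not the homozygous mutation.

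MOP1 is the maize RNA-dependent RNA polymerase that turns transcripts of RNA polymerase IV into double-stranded RNA, the source of 24-nt siRNAs. In RNA-directed DNA methylation, Argonaute proteins such as AGO104 carry these siRNAs to matching loci. In maize, many such loci lie in transposons and repeats close to genes, and mop1 is required for paramutation at b1.

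Each library was deposited as the depth of aligned reads along chromosome 2, and depth times length summed to 16527940 and 30767673 in mm, 28946139 and 26205229 in Mm, and 50406287 and 80390824 in B73. The sum of each bin was scaled to 1000000 per library, in what are called scaled units, so a value is a share of its library. A read that the alignment placed at several sites counts at each of them. Coverage was more concentrated in mm: the 1% of bins with the highest mean held 64.2% and 64.6% of it in mm, 25.3% and 33.2% in Mm, and 41.3% and 46.7% in B73. By summed coverage the B73 libraries differed from each other more than the mm libraries did, with a Pearson r over tested bins, which are not independent, of 0.909 in mm and 0.702 in B73. Of the tested bins, 478 were more than 4-fold apart between the mm libraries and 1969 between the B73 libraries, 1442 of them higher in B73 replicate 2. By covered bases at equal depth it was the reverse, with an r of 0.449 in mm and 0.808 in B73. By that measure 418 bins were over 4-fold apart in mm and 1 in B73. The measure takes expected values after thinning, by factors of 1 and 0.54 in mm and 0.33 and 0.21 in B73. The deeper B73 libraries thus carry less sampling noise in it, and how much of the difference in r comes from this was not tested. Between genotypes, by summed coverage, r was higher for B73 replicate 2, at 0.482 with mm replicate 1, than for B73 replicate 1, at 0.121.

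By summed coverage, 8235 bins were lower in mm and 2648 were higher, out of 22277 tested (limma with Benjamini-Hochberg adjustment, adjusted p under 0.05). These are 37.0% of the bins tested for losses and 11.9% for gains. In the lost bins the median was 2.18 and 1.69 scaled units in mm, 18.4 and 17.1 in Mm, and 15.2 and 12.6 in B73, with a median log2 change of -2.47. In the gained bins it was 19 and 19.3 in mm, 11.1 and 10.5 in Mm, and 2.73 and 4.36 in B73, with a median log2 change of 2.23. The change exceeded 8-fold in 1964 losses and 546 gains, and 32-fold in 3 losses and 30 gains. In every called bin both mm libraries lay on the same side of both B73 libraries.

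The split between losses and gains depends on the scaling. Scaling by the median ratio over bins called 7058 losses and 3171 gains of 21679 bins that then passed the minimum. Scaling to the coverage outside the top 1% of bins called 4608 losses and 3825 gains of 53140 bins, of which 3525 losses and 2529 gains were among the 22277 bins of the main test. With the depth at each base capped at 10 before scaling, 10030 losses and 10457 gains of 55345 bins were called, 6464 and 7831 of them among the main bins. In the bins of the main test, the median log2 change of all bins was -0.75, and these choices moved it up by 0.30, 0.57 and 1.10. The minimum also bears on the split. It was reached in B73 alone by 9574 bins, where only losses were called, in mm alone by 3171, where only gains were called, and in both groups by 9532. In the 9532 bins 665 losses and 963 gains were called, with a median log2 change of 0.22.

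Losses were broad and shallow. The median lost bin had 35 and 23.8 covered bases in mm, 161 and 153 in Mm, and 142 and 128 in B73, after each library was thinned to the depth of the shallowest of the 4 compared. Its mean depth over covered bases, without thinning, was 1.00 in both mm libraries and 2.99 and 3.30 in B73. In gained bins the covered bases hardly differed, at 39.0 and 40.8 in mm and 35.3 and 38.5 in B73, but the mean depth was 8.29 and 11.9 in mm against 1.46 and 2.75 in B73. Lost bins held 3.16% and 2.48% of the coverage in mm, against 24.4% and 16.9% in B73. Gained bins held 24.1% and 25.2% of it in mm, against 1.67% and 4.65% in B73. These shares describe bins that were called on the same values.

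The largest loss was in the bin from 223540001 to 223541000 of chromosome 2, 6622 bp from PER66, a gene named for a peroxidase. It held 0 and 1.69 scaled units in mm, 63.5 and 64.5 in Mm, and 98.1 and 75.8 in B73, a log2 change of -5.73 (SE 0.59, limma adjusted p = 0.00735). The mm and B73 libraries were far apart there, and the Mm libraries stood close to B73. The next loss, in the bin from 163571001 to 163572000, had 0 and 1.07 scaled units in mm and 96.0 and 49.6 in B73, a log2 change of -5.61 (SE 0.57, same adjusted p). There the Mm libraries were low as well, at 3.94 and 7.78 scaled units, unlike in the other 9 of the 10 largest losses, where they held at least 20.9. The bin is in no annotated gene, and the nearest, the pseudogene LOC103649037, is 32394 bp away.

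Some of the 10 largest losses lay beside genes and others far from them. The bins from 155933001, 76648001 and 31012001 lay 44225, 92987 and 31547 bp from the nearest gene. The bin from 238609001 to 238610000, 131 bp from the protein-coding gene LOC100191650, held 0 and 0.62 scaled units in mm, 20.9 and 29.2 in Mm, and 44.1 and 29.2 in B73 (log2 change -4.86, SE 0.45). At equal depth, 0 and 10.2 of its bases were covered in mm, against 359 and 284 in B73. The bin from 5626001 to 5627000 lies 119 bp from LOC100303866 and held 0.97 and 0 scaled units in mm against 36.4 and 40.2 in B73 (log2 change -4.81, SE 0.47). In both places almost nothing was left in mm.

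The bin from 210390001 to 210391000, 323 bp from LOC100283998, had no coverage in either mm library. It held 39.5 and 40.6 scaled units in Mm, and 31.0 and 25.1 in B73. Set against a floor of 3 alignments of 18 bases per mm library, it was at least 11.2-fold lower in mm. In all, 137 of the 8235 losses had no coverage in either mm library. Inside a gene, the bin from 214878001 to 214879000 in LOC100284908 held 1.09 and 0.52 scaled units in mm, 66.0 and 69.3 in Mm, and 59.1 and 43.3 in B73. Each of the 10 losses had a limma adjusted p of 0.00735, was named by a rule that asks for a call with each B73 library left out in turn, and has its annotation as gene or distance to the nearest gene only, since exons and introns could not be told apart.

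Both of the largest gains lay 40961 and 17961 bp from LOC100281864. The bin from 173840001 to 173841000 held 256 and 259 scaled units in mm, 102 and 177 in Mm, and 0.38 and 0.45 in B73 (log2 change 7.52, SE 0.46, limma adjusted p = 0.00735). The bin from 173863001 to 173864000 held 249 and 263 scaled units in mm, 105 and 179 in Mm, and 0.34 and 0.82 in B73 (log2 change 7.36, SE 0.48). All of that coverage in mm rested on 22 and 20 bases in the first bin and on 22 and 37 in the other. The values of the pair are alike. Whether the same reads stand in both places was not tested, and the alignment could report a read at more than a single site.

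Other pairs among the 10 largest gains had like values too. The bin from 33396001 to 33397000 held 290 and 336 scaled units in mm, 712 and 394 in Mm, and 1.35 and 1.60 in B73 (log2 change 6.98), while the bin from 243075001 to 243076000, in LOC118476453, held 289 and 334 in mm, 705 and 392 in Mm, and 5.24 and 3.59 in B73 (log2 change 5.86). In both bins the Mm libraries lay above the mm libraries. The bin from 103422001 to 103423000 held 2285 and 1687 scaled units in mm, 887 and 1171 in Mm, and 8.31 and 80.6 in B73. Its B73 libraries were far apart, and its log2 change of 6.16 was 4.59 with B73 replicate 1 left out and 7.72 with replicate 2 left out. With mm replicate 1 or 2 left out, its limma adjusted p was 0.0688 and 0.0679, and that of the bin from 93607001 to 93608000, with like values, was 0.0788 and 0.0766, so both calls were lost. A different shape was found in the bin from 6440001 to 6441000, with 939 and 1014 scaled units in mm, 557 and 375 in Mm, and 15.5 and 12.5 in B73. There 497 and 529 bases were covered in mm and 348 and 432 in B73, counted without thinning.

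**Figure D1:**
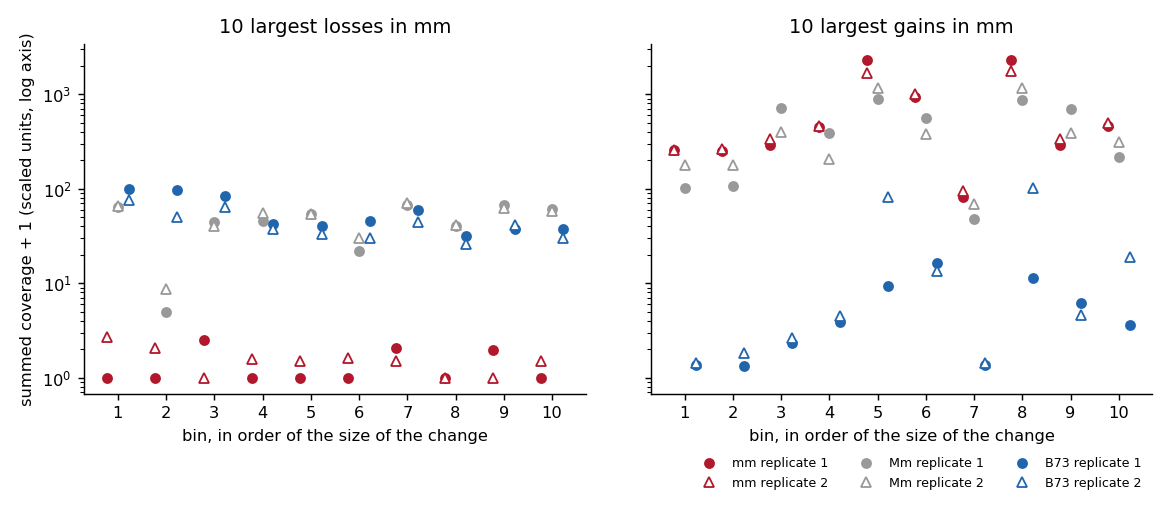
Summed coverage plus 1 in scaled units, on a log axis, in the 10 largest losses and the 10 largest gains, in order of the size of the change, with 1 point per library of mm, Mm and B73. The mm libraries hold at most 1.69 scaled units in the losses and at least 81.4 in the gains while the B73 libraries hold at least 25.1 in the losses.

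Covered bases at equal depth gave a different balance. Of 87452 bins tested by this measure, 18158 were lower in mm and 1330 were higher (limma, adjusted p under 0.05). That is 20.8% for losses and 1.52% for gains. The median log2 change of all bins tested was -0.50. Thinned to equal summed coverage, the libraries kept 3.78e+06 and 3.67e+06 covered bases in mm, against 7.00e+06 and 6.41e+06 in B73. How far the concentration of coverage in mm bears on this balance was not tested. The lost bins had a median of 17 and 14.9 covered bases in mm, 118 and 109 in Mm, and 100 and 90.8 in B73, and the gained bins 105 and 106 in mm, 87.8 and 77.0 in Mm, and 23.9 and 22.3 in B73. Of the 8235 losses by summed coverage, 7034 (85.4%) were losses by covered bases as well, which is 38.7% of the losses by that measure. Of the 2648 gains by summed coverage, 485 (18.3%) were gains by covered bases, 36.5% of those, while 1956 were called in neither direction and 53 were losses. Both measures come from the same 4 libraries.

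The largest losses by covered bases were the 2 bins beside LOC100191650 and LOC100283998 already described, with log2 changes of -3.79 and -3.77 (SE 0.32 and 0.29). The bin from 188671001 to 188672000, 616 bp from LOC100192664, came next, with 0 and 29.9 covered bases at equal depth in mm, 384 and 388 in Mm, and 368 and 350 in B73 (log2 change -3.58, SE 0.42). The largest gain, in the bin from 53000001 to 53001000, had 269 and 314 covered bases in mm, 285 and 274 in Mm, and 22.9 and 13.9 in B73 (log2 change 3.03, SE 0.27). In this bin the mm and Mm libraries were alike and B73 was low. The bin from 208887001 to 208888000 followed, with 138 and 192 covered bases in mm, 105 and 79.4 in Mm, and 0 and 7.40 in B73 (log2 change 2.97, SE 0.34). The bin from 13063001 to 13064000, with 258 in both mm libraries, 187 and 182 in Mm, and 22.8 and 11.1 in B73, had a log2 change of 2.93 (SE 0.28). All 6 had a limma adjusted p of 0.00646, and each of the 3 gains lay over 19 kb from the nearest gene.

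Most calls by summed coverage were lost with B73 replicate 1 left out, and most were kept with replicate 2 left out. The direction could not turn in either case, since both mm libraries lay on 1 side of both B73 libraries in every called bin. The losses had a median log2 change of -2.33 with B73 replicate 1 left out and of -2.62 with replicate 2 left out, and the gains of 1.88 and 2.50. With 3 libraries in the model, 333 losses and 572 gains were called without B73 replicate 1, and 6282 losses and 3772 gains without B73 replicate 2. Of the main calls, 307 losses (3.73%) and 562 gains (21.2%) were called without replicate 1, and 5437 losses (66%) and 2030 gains (76.7%) without replicate 2. Those called without replicate 1 were all called without replicate 2. The mm libraries bear on the counts too: 5144 losses were called without mm replicate 2, and 1006 and 735 gains without mm replicates 1 and 2. At an unadjusted p under 0.05, 7098 bins were lower and 2962 were higher without B73 replicate 1, against 9258 and 3511 with all 4 libraries.

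By covered bases, no bin was called by limma with either B73 library left out, while 10488 and 12399 bins were lower, and 1305 and 1396 higher, at an unadjusted p under 0.05 with B73 replicate 1 or 2 left out. Without mm replicates 1 and 2 the counts were 30376 and 30739 losses and 2977 and 4103 gains. A lone B73 library is assumed in these models to vary as the mm libraries do. The thinned values of B73 carry less sampling noise than those of mm. Counts without a B73 library and without an mm library therefore do not compare the replicates on like terms.

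With the 2 Mm libraries in the model, which add to the estimate of spread, more calls were kept. By summed coverage, 7303 of the losses (88.7%) and 2115 of the gains (79.9%) were then called with each B73 library left out in turn, and by covered bases 3895 losses and 244 gains were. This model was added after the results of the smaller models had been seen. With a B73 library left out, its estimate of spread comes from the mm and Mm libraries alone. By summed coverage the B73 libraries differed from each other more than the mm libraries did, so this estimate can understate the spread of B73. Calls kept in this model therefore do not show how far they depend on the B73 library used. The bins in which the B73 libraries were over 4-fold apart included 58 of the losses, 56 of them higher in B73 replicate 1, and 275 of the gains, 272 of them higher in B73 replicate 2.

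**Figure D2:**
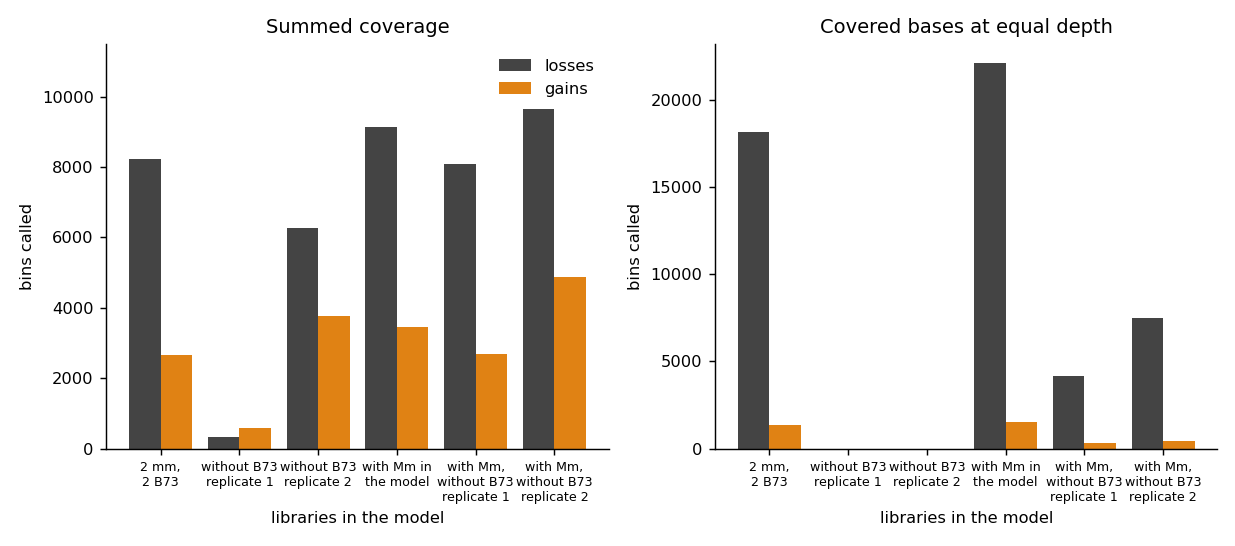
Number of 1 kb bins called as losses and gains in mm against B73, by summed coverage and by covered bases at equal depth, for each set of libraries in the limma model. Without B73 replicate 1 the losses by summed coverage number 333, against 8235 with all 4 libraries and 8085 when the Mm libraries are in the model.

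Losses were most frequent beside protein-coding genes. Of 2940 tested bins within 2 kb of such a gene and outside it, 1704 (58.0%) were lost and 142 (4.83%) were gained, with a median log2 change of -1.88. Of the 4753 tested bins that touch a protein-coding gene and no other class ranked before it, 1579 (33.2%) were lost. By distance, the share of losses was 25.9% in bins inside genes, 58.8% within 1 kb, 54.2% at 1 to 2 kb and 49.8% at 2 to 5 kb, and then 41.7%, 31.6% and 28.6% at 5 to 10 kb, 10 to 50 kb and beyond 50 kb. Gains ran the other way, with 4.85% within 1 kb, 12.4% inside genes and 15.4% beyond 50 kb.

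These shares are over bins that passed the minimum, many of them through B73 alone. In the bins that reached it in both groups, a choice added after seeing the data, losses made up 82 of 669 (12.3%) within 1 kb and 123 of 2060 (5.97%) beyond 50 kb, with a median log2 change of -0.26 and of 0.36. Over all bins, with no minimum, the median bin within 1 kb of genes held 1.21 and 1.53 scaled units in mm, 5.53 and 4.92 in Mm, and 4.25 and 3.87 in B73. Beyond 50 kb it held 0 and 0.553 in mm, 1.28 and 1.30 in Mm, and 1.05 and 0.908 in B73. All bins within 1 kb together held 5.75% and 5.69% of the coverage in mm, 8.20% and 8.09% in Mm, and 7.26% and 6.91% in B73, and those beyond 50 kb 25.5% and 25.8% in mm, 22.1% and 22.8% in Mm, and 23.5% and 23.6% in B73. By covered bases at equal depth, the share of losses was 39.3% within 1 kb, 12% inside genes and 16.2% beyond 50 kb. With the Mm libraries in the model, 1577 of the 1704 losses within 2 kb of genes were called with each B73 library left out in turn. Of all 8235 losses 7303 (88.7%) were, a like share. Bins are neighbours and share reads, so these shares are given without a test.

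**Figure D3:**
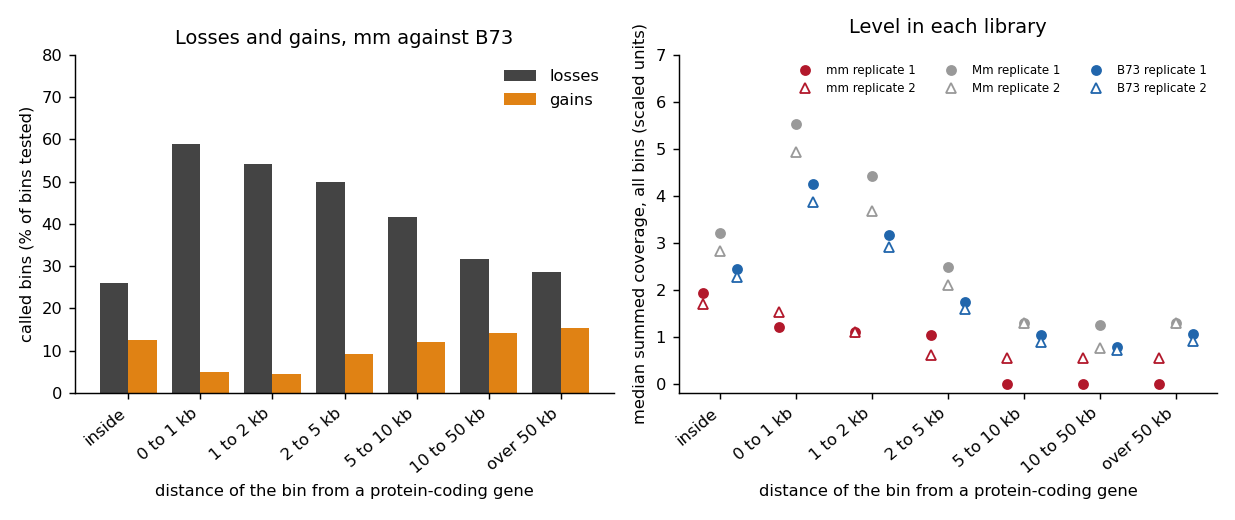
Left, share of tested 1 kb bins called as losses and gains by summed coverage, and right, median summed coverage of all bins, with no minimum, in each library of mm, Mm and B73, both by distance of the bin from the nearest protein-coding gene. The share of losses is 58.8% within 1 kb of a gene and 28.6% beyond 50 kb, and within 1 kb the median is 1.21 and 1.53 scaled units in mm, against 4.25 and 3.87 in B73.

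Among annotated classes, over the bins of the main test, bins near genes were the lowest under each of the 4 scalings, with a median log2 change that differed from that of all bins by -1.13 with the library sum, -1.24 with the median ratio, -1.29 outside the top 1% and -1.77 with capped depth. The median itself, -1.88, was -1.69, -1.47 and -1.42 under the other choices. All 4 scalings were read on bins that passed the minimum by the library sum, so they do not test that choice of bins. Of these 22277 bins, 9574 reached the minimum in B73 alone. In the bins that reached it in both groups, the median by the library sum was -0.26 within 1 kb of genes and -0.11 at 1 to 2 kb. It was 0.22 for all such bins. Bins in protein-coding genes had a median of -0.60, which turned to 0.40 with capped depth. Bins in none of the classes, 13615 in number, had 4656 losses and 1888 gains (34.2% and 13.9%, beside 37.0% and 11.9% of all bins). Their median of -0.52 turned to 0.05 outside the top 1% of bins and to 0.66 with capped depth.

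**Figure D4:**
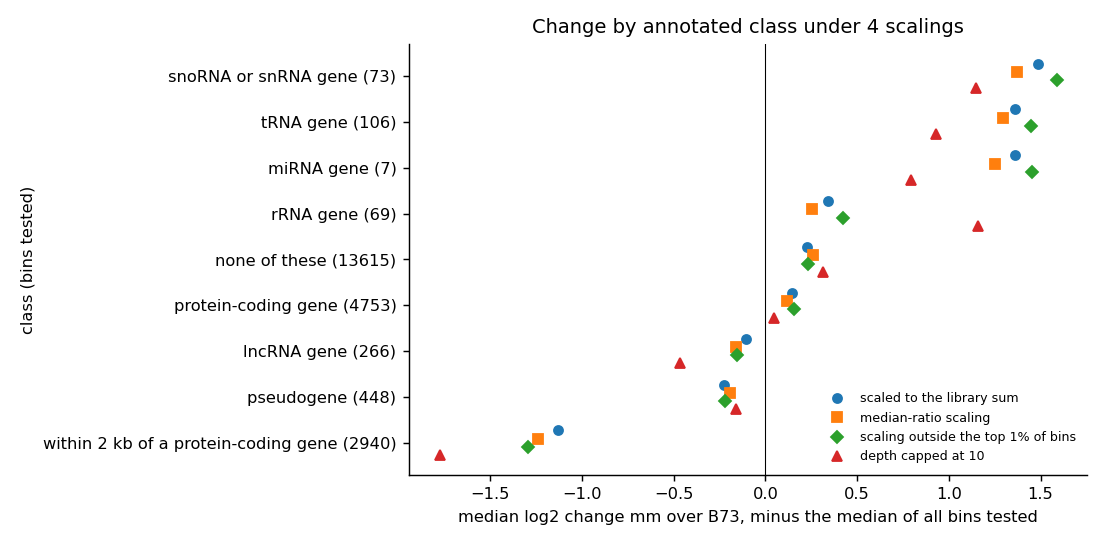
Median log2 change of mm over B73 by annotated class, minus the median of all bins tested, under 4 scalings of summed coverage. Bins within 2 kb of protein-coding genes lie between -1.77 and -1.13 and bins of snoRNA or snRNA genes between 1.15 and 1.59. All 4 are read on bins that passed the minimum by the library sum, many of them through B73 alone.

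In bins of snoRNA and snRNA genes 6.85% were lost and 21.9% gained, and in bins of tRNA genes 8.49% and 15.1%. Of all bins tested, 37.0% were lost and 11.9% gained. Of the bins that reached the minimum in both groups, 6.98% were lost and 10.1% gained, with a median log2 change of 0.22. The shares of losses in these classes are near the share in those bins. The snoRNA and snRNA genes act in RNA modification and splicing, and of their 73 tested bins 5 were lost and 16 were gained, with a median log2 change of 0.74. The median bin held 42.2 and 37.6 scaled units in mm, 19.4 and 23.5 in Mm, and 14.9 and 24.9 in B73. For tRNA genes, the adaptors of translation, 9 of 106 tested bins were lost and 16 gained, a share of gains near that of all bins, with a median of 0.61. Both medians were above 0 under each of the 4 scalings. By covered bases at equal depth neither class had a median above 0, at -0.08 for snoRNA and snRNA genes and -0.10 for tRNA genes.

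The 69 bins of rRNA genes, which encode the RNA of the ribosome, had no call by either measure in limma. Their median was 112 and 134 scaled units in mm, 45.3 and 49.4 in Mm, and 358 and 71.1 in B73, so the B73 libraries lay on both sides of mm. The direction of these bins depends on the scaling, with a median log2 change of -0.41 by the library sum and of 1.51 with capped depth. With capped depth, 68 of the 69 bins were called as gains, beside 7831 of 22242 bins of the main test, whose median log2 change was then 0.35. Most bins of tRNA genes (69 of 106) and of snoRNA and snRNA genes (56 of 73) were called as gains then too.

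The annotation holds 26 miRNA genes on chromosome 2, which touch 26 bins, and 7 of the bins passed the minimum by summed coverage. Of the 7, 2 were lost and 2 were gained (28.6% each, beside 37.0% and 11.9% of all bins), too few to read against those shares. MIR2118g belongs to the miR2118 family, which triggers phased small RNAs in grass inflorescences. Its bin from 51328001 to 51329000 held 1.15 and 1.59 scaled units in mm, 14.1 and 20.6 in Mm, and 16.4 and 10.3 in B73 (log2 change -2.57, SE 0.43, limma adjusted p = 0.00808). The bin was also lost by covered bases, with 19 and 21.7 in mm, 129 and 210 in Mm, and 168 and 129 in B73 (log2 change -2.06). A lncRNA gene, LOC100278197, overlaps MIR2118g, and without strand the reads of the pair cannot be told apart.

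MIR395f and MIR395g, of a family that acts in sulphate assimilation, share the bin from 6540001 to 6541000. It held 5.81 and 7.38 scaled units in mm, 5.94 and 5.91 in Mm, and 36.0 and 27.7 in B73 (log2 change -2.11, SE 0.46, limma adjusted p = 0.0141). By this measure the mm and Mm libraries were alike and B73 was higher. The direction turned with capped depth, at a log2 change of 1.05, and the call was lost without mm replicates 1 and 2 (limma adjusted p = 0.0993 and 0.0689). By covered bases the bin was not called, with 16 and 26.2 in mm, 44.6 and 71.5 in Mm, and 28.1 and 39.9 in B73, so that Mm was highest.

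MIR164a, whose family targets NAC transcription factors, held 53.4 and 26.8 scaled units in mm, 37.9 and 19.7 in Mm, and 11.6 and 6.62 in B73 in the bin from 223367001 to 223368000 (log2 change 1.99, SE 0.58, limma adjusted p = 0.0324). The bin of MIR396c, whose family targets growth-regulating factors, ran from 2228001 to 2229000 and held 26.2 and 9.46 in mm, 41.3 and 31.2 in Mm, and 2.32 and 5.25 in B73 (log2 change 1.89, SE 0.61, adjusted p = 0.0453). The bin of MIR396c also touches the protein-coding gene LOC103645767, and its coverage was not split between the genes. In both miRNA bins the groups did not overlap, but the mm libraries lay far apart. Without mm replicates 1 and 2, MIR164a had a limma adjusted p of 0.133 and 0.0613, and MIR396c 0.167 and 0.0420. By covered bases neither was called, with 35 and 32.5 in mm, 88.0 and 38.7 in Mm, and 51.0 and 38.2 in B73 at MIR164a (log2 change -0.26), and a log2 change of 0.76 at MIR396c. With 3 libraries, MIR164a had a limma adjusted p of 0.0563 without B73 replicate 1 and 0.0584 without replicate 2, and MIR396c 0.186 and 0.0603. MIR2118g and the MIR395 bin had 0.0635 and 0.0582 without B73 replicate 1, and 0.0271 and 0.0244 without replicate 2.

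The genes of RNA silencing on chromosome 2 that could be matched by name were mop1 itself, rmr7, which encodes a subunit shared by RNA polymerases IV and V, and met5, a DNA methyltransferase. No bin of mop1 passed the minimum by summed coverage, and of its 7 bins 4 were tested by covered bases and none called. Of the 13 bins of rmr7, 1 was tested by summed coverage and 11 by covered bases, and none was called. In met5, the bin from 10738001 to 10739000 rose to 477 and 694 scaled units in mm, beside 247 and 239 in Mm, against 74.7 and 137 in B73 (log2 change 2.49, SE 0.70, limma adjusted p = 0.0302). At equal depth the coverage there rested on 76 and 22 bases in mm and on 144 and 117 in B73, and the bin was not called by covered bases. The bin from 10746001 to 10747000 fell to 1.27 and 3.54 scaled units in mm, beside 48.9 and 35.5 in Mm, against 26.5 and 23.7 in B73 (log2 change -3.02, SE 0.48, limma adjusted p = 0.00791). Most of this bin lies outside the gene, which ends at 10746180. The same bin fell by covered bases, with 21 and 53.4 in mm and 138 and 152 in B73 (log2 change -1.59). With B73 replicate 1 left out both calls by summed coverage were lost (limma adjusted p = 0.0519 for the gain and 0.0601 for the loss), and with replicate 2 left out both were kept (0.0114 and 0.0320).

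The b1TR array, the enhancer repeats at which paramutation of b1 takes place, was located from 19760816 to 19766786 by the period of its coverage. Its 7 bins were all under the minimum by summed coverage, at 1.03 to 4.52 scaled units in mm, 1.24 to 6.75 in Mm and 0.95 to 3.87 in B73. All 7 were tested by covered bases and none was called, with log2 changes from -0.59 to 0.84. The negative changes were in the first and last bins, which the array fills in part, and the bins between ran from 0.07 to 0.84. The depth used here is not split by read length. In the study, 24-nt reads of Mm mapped to the repeats and those of mm did not. The coverage there repeats over 7 units, the number searched for, with a mean r between units of 0.633 and of at most 0.142 elsewhere in the stretch searched. Positions in the tables ran ahead of the B73 assembly by 7855 bp beyond the array and not before it, so the tables hold sequence at this place that the assembly lacks. The array differs between B' stocks and B73.

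Along the chromosome, cut into 10 equal parts, losses were more frequent towards the ends. Their share was 42.6% in the first part and 41.4% in the last, and lowest in the fourth, at 27.9%. Gains numbered 237 to 280 in every part, from 9.77% to 15.0% of the bins tested. Losses came singly in 5822 bins (70.7%) and gains in 2291 (86.5%). The longest run of losses, 7 bins from 226465001 to 226472000, lies outside the annotated classes, and scaled units ran from 0 to 3.87 over its bins in mm and from 9.29 to 39.6 in B73. The longest run of gains, also of 7 bins, ran from 80310001 to 80317000 across LOC109944209 and its flanks.

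Gained bins included some of the deepest in the libraries. The bins from 214720001 to 214721000 and from 214727001 to 214728000, both in the lncRNA gene LOC109944606, were chosen after their values were seen. The first held 15214 and 15350 scaled units in mm, 4561 and 6109 in Mm, and 374 and 2897 in B73 (log2 change 3.87, SE 1.09, limma adjusted p = 0.0302). The other held 15193 and 15342 in mm and 365 and 2896 in B73, so the pair again carry like values. The pair made up 3.04% and 3.07% of the coverage of chromosome 2 in mm, 0.910% and 1.22% in Mm, and 0.0739% and 0.579% in B73. All other bins of lncRNA genes together held 0.940% and 0.894% of it in mm, 1.06% and 0.980% in Mm, and 0.888% and 0.868% in B73. Of the 266 tested bins of the class 101 were lost and 35 were gained (38% and 13.2%), with a median log2 change of -0.85. These are near the 37.0%, 11.9% and -0.75 of all bins tested. The deepest bin in mm, from 157624001 to 157625000, was not called, with 20475 and 18624 scaled units in mm and 15333 and 13613 in B73.

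Isolated stretches of coverage, with no covered interval next to them, gave the length of alignments, and those of 16 to 21 bases were used. How these lengths follow from read lengths is not stated. In lost bins, stretches of 19 bases made up 27.9% and 16.7% of the total in mm, 46.8% and 47.7% in Mm, and 41.7% and 42.8% in B73, weighted by depth. In gained bins they made up 7.46% and 6.48% in mm, 25% and 23.8% in Mm, and 32.4% and 29.2% in B73. In bins not called they made up 10.4% and 7.40% in mm and 29.4% and 28.9% in B73. The mm libraries lay below the B73 libraries in all 3 kinds of bin.

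Stretches of 17 bases were more frequent in mm. Their share was 25.8% ± 4.00 in mm and 12.6% ± 0.49 in B73 in lost bins (SD, n = 2 each). It was 31.5% ± 0.12 in mm and 20.6% ± 0.27 in B73 in gained bins, and 33.7% ± 1.31 in mm and 20.0% ± 0.64 in B73 in bins not called. Each difference gave p = 0.33 in a two-sided exact permutation test, the smallest that 2 libraries against 2 can give. Weighted by depth, gained bins in mm were led by 16 bases, at 43.5% ± 3.36 in mm, 27.3% ± 2.93 in Mm, and 20.1% ± 4.41 in B73. With each stretch counted once, 17 bases led there, at 36.9% in mm against 20.0% in B73, with 16 bases at 25.9% in mm against 14.9% in B73. In bins gained by covered bases 17 bases led as well, weighted by depth, at 47.4% in mm against 30.4% in B73.

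**Figure D5:**
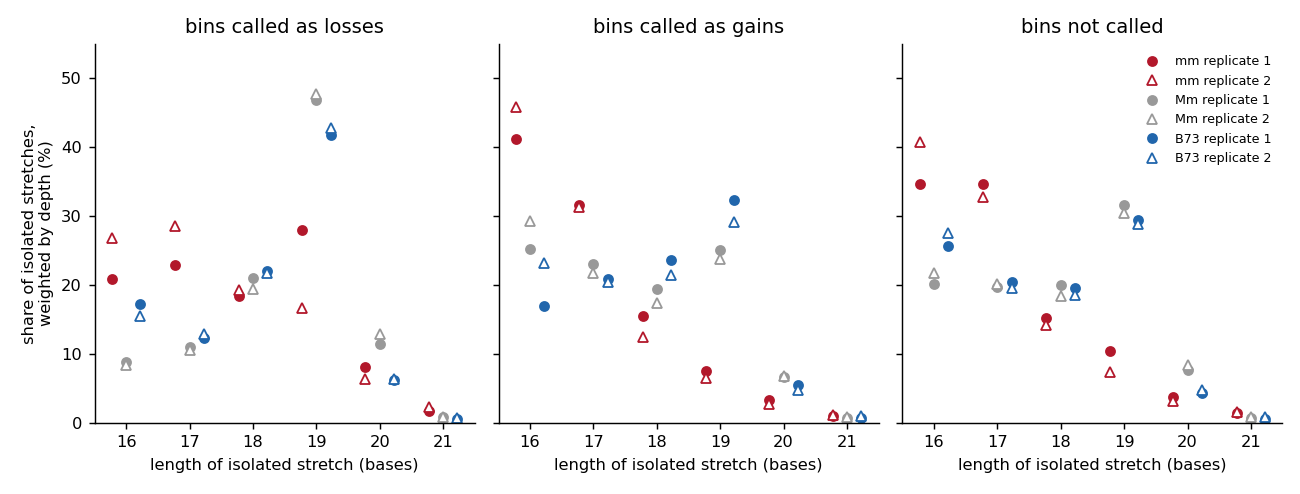
Share of isolated stretches by length in bases, weighted by depth, in each library of mm, Mm and B73, for bins called as losses, as gains and not called by summed coverage. Stretches of 19 bases hold 16.7% to 27.9% in mm and 41.7% to 42.8% in B73 in lost bins, and 6.48% to 7.46% in mm and 29.2% to 32.4% in B73 in gained bins.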

How the data were processed

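For each library the authors deposited coverage of chromosome 2, a depth signal in whole numbers per interval with no scaling to library size. Per the study's methods, Trimmomatic served for trimming and Bowtie 1.2.2 for alignment by the authors, allowing up to 2 mismatches and more than a single site per read, to B73 or to a composite with the b1TRs. Which of these the tables hold is not stated in words, but their positions run ahead of B73 beyond the b1TR array. Multiple placements cannot be undone.

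Sums of depth times length in 1 kb bins were scaled to 1000000 per library and fitted as log2(value + 1) with limma 3.58.1 (R 4.3.3, with a trend) in bins with a mean of at least 5 over the 4 libraries, and adjusted over all of them at 0.05. Covered bases were thinned to the shallowest library, by the chance that a base of given depth stays covered, and fitted as log2(value + 20) at a mean of at least 20. No count model was used. The model was tested on simulated data. P-values measure the spread between 2 libraries per genotype. Other steps used Python 3.11.15, numpy 2.4.6, pandas 2.3.3, scipy 1.17.1 and matplotlib 3.10.9.

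Gene positions are those of RefSeq for Zm-B73-REFERENCE-NAM-5.0, and were moved by 7855 bp beyond the b1TR array, where the coverage of tRNA genes met them best. RefSeq's table gives gene spans without exons, and bin positions are those of the tables. Each bin belongs to the first class it meets, with small RNA genes before protein-coding genes and these before their flanks of 2 kb. The bins named are the 10 largest losses and gains by summed coverage whose groups do not overlap and that are called with each B73 library left out in turn, adjoining bins taken as 1 place. To them come the 3 largest losses and gains by covered bases (there by the model with Mm, since none passed with 3 libraries), the bins of b1TR and mop1, and called miRNA bins. The bins, lists and tests were chosen with earlier results of these data known. The library labelled ago104 was not used here.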

Additional observations from a re-analysis of the deposited data

How the results depend on the processing

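By summed coverage, losses outnumbered gains under every alternative except capped depth, no filter, and the 3-library model without B73 replicate 1. With no filter on low bins there were 0 losses and 0 gains by limma, and 56234 and 8633 at an unadjusted p under 0.05. With a filter 4 times as high there were 293 losses and 280 gains, and in 5 kb bins 1448 and 705. Scaling outside the top 1% of bins gave 4608 losses, capped depth 10457 gains, and the model with Mm gave 4880 gains without B73 replicate 2. With single libraries left out, losses ranged from 333 to 7063 and gains from 572 to 3772. The trend, the pseudocounts of 0.25 and 4, the moved bins, the median ratio and the model with Mm kept both counts within 1.5 times. The bins named by summed coverage were chosen with groups that do not overlap. Leaving out a library or changing the pseudocount thus could not turn their direction. The median ratio and the scaling outside the top 1% multiply each library by a single factor, too small to turn changes of this size. Of the settings tried, only capped depth could have turned them. In the 20 bins named by summed coverage the direction held under every setting tried for them, and 2 calls, of the bins from 93607001 and 103422001, were lost when mm replicate 1 or 2 was left out.

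By covered bases, no filter gave 0 losses and 0 gains by limma (58348 and 4870 at an unadjusted p under 0.05), a filter 4 times as high 5084 and 763, 5 kb bins 11805 and 618, and a pseudocount of 5 gave 9709 and 688. Covered bases as counted gave 64596 losses and 163 gains, and covered bases per 1000000 of the library gave 46 losses and 1504 gains of 1883 bins. With single libraries left out, losses ranged from 0 to 30739 and gains from 0 to 4103. With Mm in the model there were 4134 and 7486 losses and 304 and 423 gains without B73 replicates 1 and 2. Calls made in that model with each B73 library left out in turn numbered 7303 losses and 2115 gains by summed coverage, and 3895 and 244 by covered bases. The causes of these differences were not tested.

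The difference in the share of 17 bases was 16.9 percentage points in gained and 16.5 in uncalled bins with each stretch counted once, and 17.04 in bins gained by covered bases. That of 19 bases was -23.5 in uncalled bins with each stretch counted once, and -17.7 in gained and -24.3 in uncalled bins by covered bases. Among miRNA bins, the log2 change at MIR395f turned to 1.05 with capped depth. At MIR398a and MIR156f, which were not called, it ranged from -0.56 to 1.47 and from -0.12 to 1.34 with single libraries left out.

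With the replicate number as a replicate block there were 8623 losses and 2980 gains by summed coverage, and 24603 and 1966 by covered bases. Deviations of libraries with the same number had a correlation of 0.05 by summed coverage and 0.01 by covered bases, so the number does not pair them. Depth limits the low bins: 1 alignment of 18 bases is worth 1.09 and 0.59 scaled units in the mm libraries. With 2 libraries per genotype, the calls rest on the spread that limma shares across bins.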
